A study of Caenorhabditis elegans with 4 samples.

Results

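GFP 2 and GFP 3 are the 2 peak lists of a GFP antibody used to map LAG-1 on chromatin in whole Caenorhabditis elegans. Each immunoprecipitation (IP) was set against 1 shared input DNA library, and a FLAG antibody IP, FLAG 1, served here as a check from outside. Members were all deposited peaks of the 2 GFP libraries, reduced to 1 entry for each chromosome, start and end, with the summit of highest pileup standing for the peak. They numbered 1246 of the 2121 deposited peaks of the series, 847 in GFP 2 and 399 in GFP 3. Whole animals of the Bristol strain were synchronised by bleaching and grown to the L4 larval stage on NA22 bacteria, and the same labels apply to GFP, FLAG and input samples. The GFP libraries are numbered 2 and 3 in the labels, and the design text counts them as biological replicates. The construct that carries GFP or FLAG, its promoter and its genotype are not given in the sources used here. Since whole animals were used, the tissue from which a site's signal came cannot be told apart.

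LAG-1 is the worm's member of the CSL family of DNA-binding proteins, the nuclear end of the Notch pathway. When a DSL ligand binds the Notch receptors LIN-12 or GLP-1, the receptor's intracellular domain is cut free, enters the nucleus and joins LAG-1 and the co-activator SEL-8 on target genes. In the germ line this pathway keeps stem cells proliferating, and in the soma it sets cell fates such as those of the vulval precursors. Sites are given by position, as 1-based ce10 coordinates, and not by gene, because neither genes nor sequence of ce10 were used here.

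Of 8239811 tags in GFP 2, the caller kept 6858855 (83.2%) once duplicates were removed. GFP 3 was deeper before and after this step, with 12914175 tags and 9404288 kept (72.8%), and it had the higher redundant rate (0.27 against 0.17). The fragment length used for tag extension was 58 bp in GFP 2 and 48 bp in GFP 3, beside a tag size of 49 bp. With 1 tag kept per position and strand, the pileup, which counts extended tags at a summit, could not exceed 116 in GFP 2 or 96 in GFP 3, and each list reached its limit. The genome-wide mean background was 4.42 tags in GFP 2 and 5.02 in GFP 3. At the summit standing for the peak, fold enrichment over input passed the design text's limit of 2 for 800 of 847 GFP 2 peaks (94.5%) and for 245 of 399 GFP 3 peaks (61.4%). Fold enrichment, the ratio of pileup plus 1 to background plus 1, is the authors' value and is used here to rank or describe peaks within a list.

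Joining GFP peaks that shared at least 1 bp gave 911 sites, and 288 of them (31.6%, 95% Wilson interval 28.7 to 34.7) held peaks of both replicates. In peaks, 331 of 399 in GFP 3 overlapped GFP 2 (83.0%, interval 79.0 to 86.3) and 292 of 847 in GFP 2 overlapped GFP 3 (34.5%, interval 31.3 to 37.7). A further 555 sites were in GFP 2 only and 68 in GFP 3 only. The lists share their input library, so no test against chance was made, and intervals cover counting error only. With 2 replicates, a difference between them has no estimate of spread beyond the pair itself.

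The sites of both replicates came in 2 kinds. At 67 of them every GFP peak lay on low background, meaning a local background of at most 3 times the genome-wide mean. At the other 221 (76.7%, interval 71.5 to 81.2) at least 1 GFP peak lay above that limit, and 5 of these mixed low and raised peaks. Over each whole list, 282 of 847 GFP 2 peaks and 323 of 399 GFP 3 peaks lay above it. Every low-background peak passed a fold of 2, with a lowest of 2.3 in GFP 2 and 2.33 in GFP 3. The 67 low-background sites had a median pileup of 39 (quartiles 30 and 58) in GFP 2, against 25 (quartiles 20.5 and 35) in GFP 3. In GFP 2 their median fold was 6.0 (quartiles 4.56 and 8.56), and in GFP 3 it was 3.82 (quartiles 3.16 and 5.49). Pileup was higher in GFP 2 at 62 of the 67, equal at 1 and higher in GFP 3 at 4, although GFP 3 had more tags and the higher mean background. Raised-background sites had higher pileups, with a median of 90 in GFP 2, where the limit is 116, and 86 in GFP 3, where it is 96. Folds at raised-background sites were low, with a median of 2.47 (quartiles 2.19 and 2.74) in GFP 2, against 2.07 (quartiles 1.89 and 2.29) in GFP 3. Their background stood at a median of 8.14 times the mean in GFP 2 and 8.25 times in GFP 3, against 1.13 and 1.0 times at low-background sites.

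From these, 10 low-background sites are described one by one, taken as those with the highest rank by fold in the weaker of the 2 lists. Since fold chose them, their folds are a description. The first lay on chromosome I from 10587973 to 10588856, with its main summit at 10588359 in GFP 2 and 10588355 in GFP 3. Its pileup was 112 in GFP 2, 92 in GFP 3 and 101 in FLAG 1. A lesser summit stood 166 bp left of the main one in GFP 2, with a pileup of 67, and 164 bp left of that same point in GFP 3, with a pileup of 45. In FLAG 1 the lesser summit was elsewhere, 355 bp to the left, with a pileup of 32. All 3 libraries thus placed the main summit within 7 bp, and both GFP libraries held the same shoulder.

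The second site, on chromosome III from 9793447 to 9794155, had a single GFP 2 summit at 9793830 with a pileup of 106. GFP 3 split the same stretch into 3 summits, at 258, 109 and 5 bp to the left of it, with pileups of 34, 68 and 90. FLAG 1 also gave 3 summits, at 322, 83 and 5 bp to the left. Summit number therefore differed between the replicates at a site where the main summits were 5 bp apart. At the third, on chromosome III from 6344561 to 6345109, pileups were 81 in GFP 2, 52 in GFP 3 and 78 in FLAG 1, with GFP main summits 6 bp apart.

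The fourth site, on chromosome I from 12483415 to 12484195, sat at the pileup limit in every library, at 116, 96 and 106 in GFP 2, GFP 3 and FLAG 1. Its fold of 11.7 in GFP 2 and 10.8 in GFP 3 is therefore bounded by duplicate removal. At the fifth, on chromosome V from 11769907 to 11770623, pileups were 107 in GFP 2, 84 in GFP 3 and 94 in FLAG 1. GFP 3 and FLAG 1 each held a lesser summit about as high as the main one, 77 and 80 bp left of the GFP 2 main summit, while the lesser GFP 2 summit was 369 bp to the left with a pileup of 23.

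The sixth site was the widest of the 67 at low background, 1634 bp on chromosome IV from 6096741 to 6098374. GFP 2 placed 6 summits across it, of which 3 were nearly level, with pileups of 101, 92 and 102 at 6097223, 6097503 and 6097721. GFP 3 placed 5, with pileups of 58, 38, 45, 62 and 19 from left to right, and its strongest at 6097713 was 8 bp from that of GFP 2. In FLAG 1 the strongest was the leftmost, with a pileup of 88 at 6097219. The 2 GFP libraries thus had their highest summit at the same place here, though only by 102 against 101 in GFP 2 and 62 against 58 in GFP 3. The highest summit of FLAG 1 was close to the GFP 2 summit at 6097223.

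The remaining sites of the 10 were narrower than the sixth. On chromosome I from 4587091 to 4587783, GFP 2 gave a single peak of 693 bp where GFP 3 gave a pair, and pileups were 64 in GFP 2, 54 in GFP 3 and 64 in FLAG 1. On chromosome V from 15133610 to 15134248, pileups were 86, 44 and 85 in the same order. On chromosome III from 9565833 to 9566254, each library had 1 summit, with pileups of 46, 46 and 43 and all 3 summits within 9 bp. On chromosome III from 3630259 to 3630873, pileups were 107, 53 and 94, and main summits lay within 5 bp. Over the 10 sites, the GFP main summits were 4 to 22 bp apart (median 8), and each overlapped a FLAG 1 peak, with a fold there of 4.75 to 11.3.

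**Figure D1:**
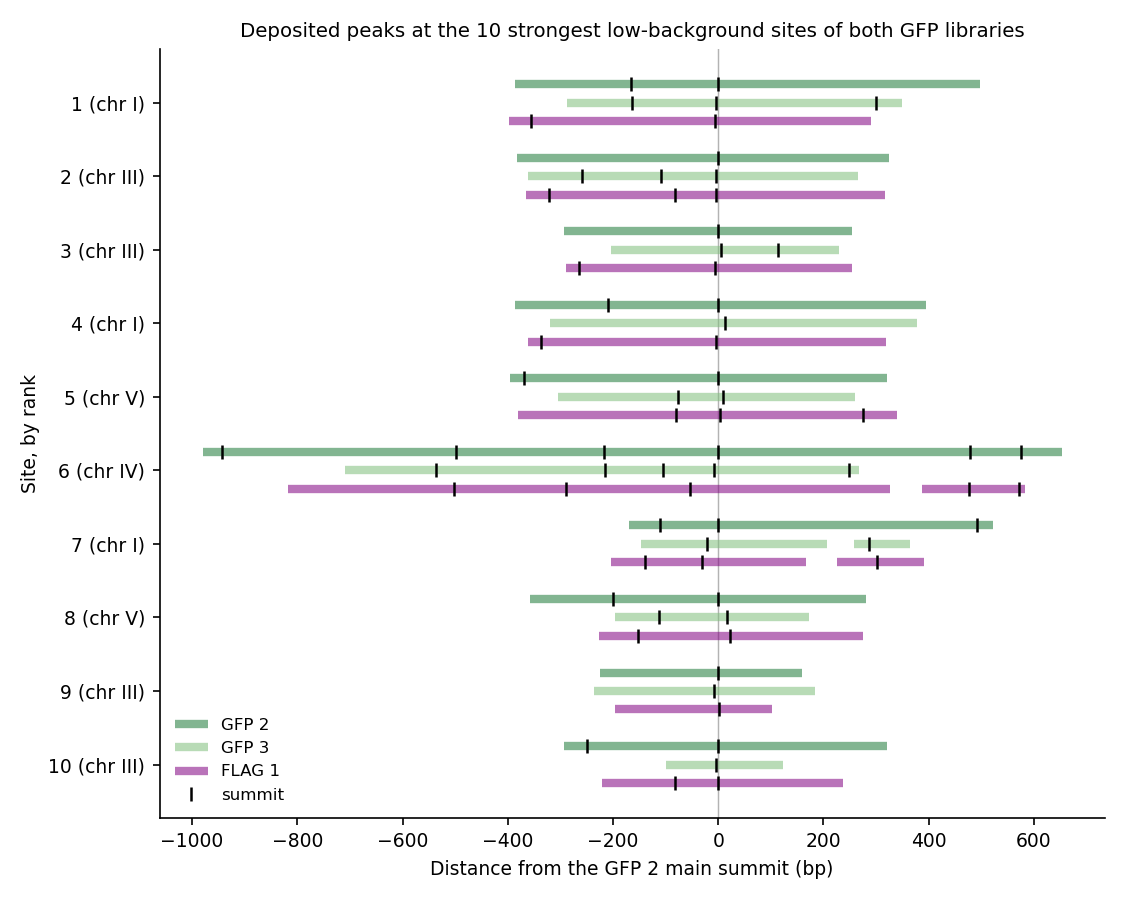
Peaks of GFP 2, GFP 3 and FLAG 1 (bars) and their summits (black ticks) at the 10 strongest low-background sites of both GFP libraries, as distance in bp from the GFP 2 main summit. The main summits of GFP 2 and GFP 3 lie 4 to 22 bp apart, and lesser summits are placed less evenly.

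The replicates' peaks at a shared site differed in width. At the 67 low-background sites the main GFP 2 peak had a median width of 384 bp (quartiles 268 and 561, 95% interval of the median 341 to 439) and the main GFP 3 peak 163 bp (quartiles 83.5 and 237, interval 119 to 218). GFP 2 was the wider at 64 of 67. Of the 64 sites with a single peak of each library, 55 had the GFP 3 peak wholly inside the GFP 2 peak (85.9%, interval 75.4 to 92.4) and 2 the reverse. There the shared stretch had a median of 160 bp and covered a median of 43.1% of the GFP 2 peak (quartiles 29.0 and 59.98). At raised-background sites widths were closer, with medians of 152 bp (quartiles 99 and 289) for GFP 2, against 120 bp (quartiles 82 and 207) for GFP 3, and GFP 2 was the wider at 168 of 221. Among the 190 with a single peak of each library, the overlap covered a median of 86.3% of the GFP 2 peak (quartiles 66.1 and 96.1), and the GFP 3 peak lay inside the GFP 2 peak at 109. The difference in fragment length, 58 against 48 bp, moves with these widths, and its part in them was not tested.

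**Figure D2:**
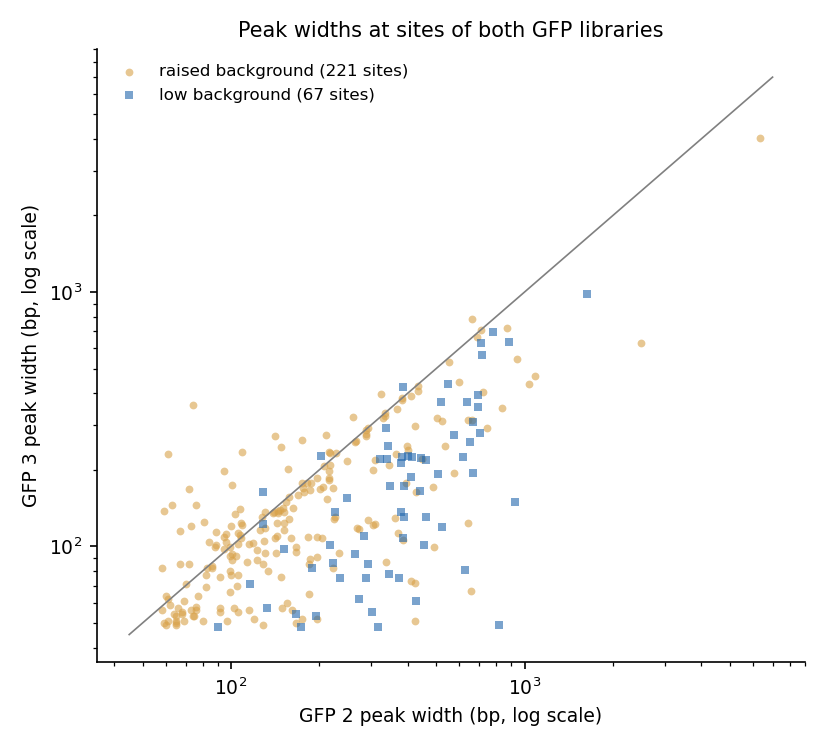
Width of the main GFP 3 peak against that of the main GFP 2 peak, both in bp on log axes, for the 288 sites of both libraries, with a line of equal width. Of the 67 low-background sites, 64 lie below the line, against 168 of the 221 with raised background.

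Summit number was counted over every deposited summit of the peaks that made up a site. At low background, GFP 2 had 1 summit at 28 sites, 2 at 24, 3 at 10 and 4 or more at 5. GFP 3 had 1 summit at 42 sites, 2 at 20, 3 at 3 and 4 or more at 2. The number was the same in both replicates at 29 of 67 sites, higher in GFP 2 at 29 and higher in GFP 3 at 9. Several summits in both libraries were seen at 18 sites (26.9%, interval 17.7 to 38.5). At raised background the replicates gave the same number at 154 of 221 sites (69.7%, interval 63.3 to 75.4), and 114 had a single summit in both. Sites in GFP 2 only at low background mostly had a single summit, with 92 of 497 (18.5%, interval 15.3 to 22.2) having several.

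Where a low-background peak had several summits, neighbouring ones were a median of 140 bp apart in GFP 2 (67 gaps, quartiles 101 and 200) and 99 bp in GFP 3 (29 gaps, quartiles 83 and 133). The next-highest summit reached a median of 68.8% of the main pileup in GFP 2 and 74.1% in GFP 3. At raised background these medians were 92.8% and 95.7%, so that the main summit there often stood little above the next. Neighbouring summits there were a median of 141 bp apart in GFP 2 (203 gaps) and 117.5 bp in GFP 3 (154 gaps). The low-background site with most summits was on chromosome X from 16930764 to 16931688, with 8 in a 925 bp GFP 2 peak and 4 spread over 3 GFP 3 peaks. Its neighbour, on X from 16929777 to 16930605, lay 158 bp away and had 6 in GFP 2 and 1 in GFP 3. Main pileups at this pair were modest in the GFP libraries, 35 and 35 in GFP 2 and 22 and 21 in GFP 3, with folds of 5.31 and 5.44 in GFP 2 and 3.14 and 3.05 in GFP 3. FLAG 1 joined most of the stretch in 1 peak of 1856 bp with a pileup of 86 and a fold of 8.66. This pair is the one place where 2 low-background sites of both replicates lay within 500 bp of each other.

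A pair of sites on chromosome I completed the 5 with most summits, beside the wide one on IV. From 2914163 to 2914827, GFP 2 had 4 summits and GFP 3 had 2, with main pileups of 82 and 53 at points 2 bp apart. From 5311545 to 5312212, GFP 2 had 4 and GFP 3 had 2, with main pileups of 57 and 26 at points 26 bp apart.

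The distance between the main summits of the replicates had a median of 22 bp over the 67 low-background sites (quartiles 9.5 and 59.5, interval of the median 15 to 31), and 48 pairs lay within 50 bp. The largest was 137 bp. Measured from the GFP 3 main summit to the nearest GFP 2 summit of any height, the median was 18 bp (quartiles 9 and 39.5). At raised background the median between main summits was 8 bp (quartiles 3 and 34, interval 6 to 9), and it was 6 bp to the nearest summit (quartiles 2 and 18). The largest distance there was 1839 bp, in a wide peak of many near-level summits. From the left end of its peak, the main summit at low background lay at a median of 53.6% of the width in GFP 2 (quartiles 44.2 and 60.1). In GFP 3 it lay at 48.4% (quartiles 32.2 and 59.4). At raised background these medians were 49.2% and 47.1%. Measured from 1 end, such a median does not by itself show that summits are central. The distance that overlapping peaks of these widths would have by chance was not computed.

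**Figure D3:**
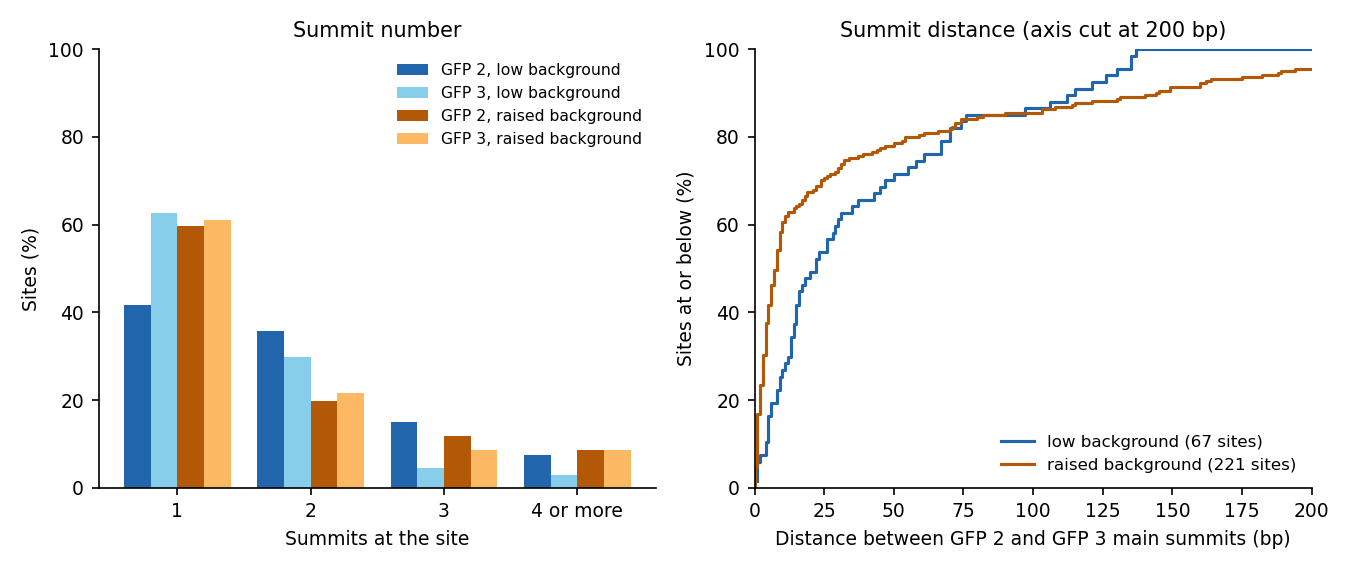
Left, share of the 67 low-background and 221 raised-background sites (%) by number of summits in each GFP library. Right, share of sites (%) whose GFP 2 and GFP 3 main summits lie at or below a distance in bp. GFP 2 has a single summit at 28 low-background sites and GFP 3 at 42, and the median distance is 22 bp at low and 8 bp at raised background.

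Low-background sites were scattered over all 6 chromosomes, with 20 on X (29.9%, interval 20.2 to 41.7), 12 each on IV and V, 8 each on II and III and 7 on I. X held 196 of all 911 GFP sites (21.5%, interval 19.0 to 24.3) and 100 of the 497 low-background sites in GFP 2 only (20.1%, interval 16.8 to 23.9), and these intervals overlap. The median gap to the next such site was 458017 bp, and 9 of 67 had one within 10000 bp. Each chromosome's span, from the first to the last base of any deposited peak, was cut into 3 equal parts. The middle part held 30 of the 67 (44.8%, interval 33.5 to 56.6) and 205 of the 497 low-background sites in GFP 2 only (41.2%, interval 37.0 to 45.6). By chromosome it held 7 of 8 on II, 7 of 12 on IV, 5 of 12 on V, 4 of 8 on III, 6 of 20 on X and 1 of 7 on I. These spans are not chromosome lengths, which were not used here, and the counts on 1 chromosome are small.

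GFP 2 held many low-background peaks that GFP 3 did not. Of its 565 such peaks, 68 overlapped a GFP 3 peak of either background (12.04%, interval 9.61 to 15.0), while 75 of the 76 low-background peaks of GFP 3 overlapped GFP 2. With low-background peaks alone in both lists, these shares were 11.9% and 93.4%. Raised-background peaks overlapped alike both ways, 224 of 282 in GFP 2 (79.4%) and 256 of 323 in GFP 3 (79.3%). Split by fold into 4 classes of equal size, at 3.07, 3.61 and 4.43, the low-background GFP 2 peaks were found in GFP 3 in 2 of 142, 1 of 141, 12 of 141 and 53 of 141 cases from the lowest class to the highest. The shares in FLAG 1 were 27 of 142, 32 of 141, 50 of 141 and 118 of 141. The highest class thus had 37.6% found in GFP 3 (interval 30.0 to 45.8) and 83.7% in FLAG 1 (interval 76.7 to 88.9). The lowest pileup among low-background peaks was 14 in GFP 2 and 16 in GFP 3, so a site much weaker in GFP 3 than in GFP 2 would not be listed.

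Peaks of that highest class were also split by width. Of its 106 peaks at least 125 bp wide, 52 were found in GFP 3 (49.1%, interval 39.7 to 58.4) and 92 in FLAG 1 (86.8%, interval 79.0 to 91.97). Of the 35 at most 115 bp wide, less than double the fragment length, 1 was found in GFP 3 (2.86%, interval 0.506 to 14.5) and 26 in FLAG 1 (74.3%, interval 57.9 to 85.8). Folds overlapped, with a median of 5.17 (quartiles 4.63 and 6.55) in the narrow peaks and 5.90 (quartiles 5.11 and 7.28) in the wide ones. All 35 narrow peaks had 1 summit. This split was chosen after the values were seen and has no test.

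Of low-background sites in GFP 2 only, the highest pileup was 59, in a peak of 79 bp on chromosome III from 1881072 to 1881150, with a fold of 8.57. FLAG 1 had a pileup of 86 and a fold of 10.6 there. The next lay on II from 10217887 to 10218304, with pileups of 58 in GFP 2 and 55 in FLAG 1, and on IV from 11190885 to 11191330, with a pileup of 56 in GFP 2 and no FLAG 1 peak. The 1 low-background site of GFP 3 only was on X from 16056374 to 16056436, with a pileup of 19 and a fold of 3.32. A GFP 2 peak began 14 bp beyond its end, so this site missed the overlap rule narrowly.

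The FLAG library, which played no part in choosing the sites, overlapped 387 of the 911 GFP sites (42.5%). It overlapped 61 of the 67 low-background sites of both replicates (91.0%, interval 81.8 to 95.8), 165 of the 497 in GFP 2 only (33.2%, interval 29.2 to 37.5) and not the 1 in GFP 3 only. The 67 were also stronger and wider than the 497. Their median GFP 2 fold was 6.0 against 3.51, and their median site width 386 against 107 bp. The part of strength and width in these shares was not tested. At the 61 sites of both replicates, FLAG 1 had a median fold of 3.79 (quartiles 3.18 and 5.93), and its lowest was 2.06. The FLAG 1 main summit was a median of 23 bp from that of GFP 2 (quartiles 7 and 49) and 18 bp from that of GFP 3 (quartiles 13 and 42), and at 39 of 61 sites all 3 lay within 50 bp of each other. FLAG 1 was called against the same input library as both GFP lists, so it is a check by another antibody, not by another control.

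The 6 low-background sites without a FLAG 1 peak had GFP 2 pileups of 16 to 27 and GFP 3 pileups of 16 to 21. The first by the lower of the percentiles of fold within the GFP 2 and GFP 3 lists, on X from 12362968 to 12363254, had pileups of 26 in GFP 2 and 21 in GFP 3, and its main summits were 137 bp apart, the farthest of the 67. Next by rank came II, 5543606 to 5543751, with pileups of 23 and 17, then I, 14462995 to 14463127, with 22 and 21. Below them were II, 8185111 to 8185200, with 21 and 16, and IV, 6785895 to 6786083, with 16 and 18. The sixth, on IV from 3654226 to 3654398, falls outside the first 5 by rank and is named here after its values were seen, with pileups of 27 and 18 and main summits 121 bp apart. Each of the first 5 had 1 summit in each library, and widths ran from 90 to 236 bp in GFP 2 and from 48 to 82 bp in GFP 3.

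**Figure D4:**
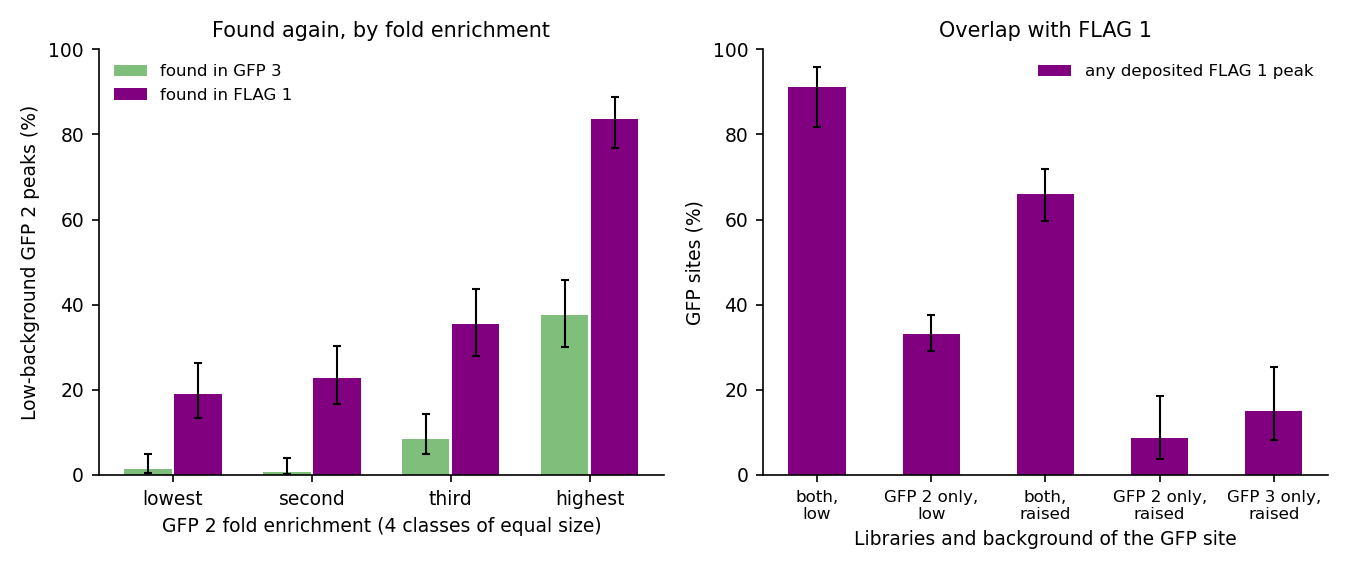
Left, share of low-background GFP 2 peaks (%) found in GFP 3 and in FLAG 1 by class of GFP 2 fold enrichment. Right, share of GFP sites (%) that overlap any deposited FLAG 1 peak, by libraries and background. Bars carry 95% Wilson intervals, and 91.0% of low-background sites of both libraries overlap FLAG 1, against 33.2% of those in GFP 2 only. Median GFP 2 fold is 6.0 in the former and 3.51 in the latter.

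Raised-background sites of both replicates were crowded, not scattered. The median gap to the next such site was 101 bp, and 167 of 221 had one within 500 bp (75.6%, interval 69.5 to 80.8). Joined at gaps of up to 10000 bp, they formed 69 stretches, of which 36 held a single site and 13 held 5 or more, with 126 sites (57.0%) in those 13. The fullest ran on V from 17115747 to 17132056, with 15 sites that held 42 summits in GFP 2 and 38 in GFP 3. A pair of stretches on X, from 109247 to 114239 and from 15807627 to 15811105, held 13 sites each.

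The widest raised-background site, and the one with most summits, was on chromosome I from 15061633 to 15067963, a single GFP 2 peak of 6331 bp with 35 summits. GFP 3 covered it with 3 peaks and 28 summits. Its neighbours from 15068827 to 15071325 (11 summits in GFP 2, 12 in GFP 3) and from 15060313 to 15061543 (6 and 8) came next in both orders, at the right end of the chromosome, where C. elegans carries its array of large ribosomal RNA genes. Main folds across the 3 were 2.41 to 2.74 in GFP 2 and 2.02 to 2.22 in GFP 3, with FLAG 1 at 1.63 to 1.67. The other sites by number of summits or width were on I from 933740 to 934685 (6 summits in GFP 2 and 8 in GFP 3), on X from 292584 to 293624 (6 and 7) and on X from 293697 to 294780 (7 and 6). Background at these 6 sites was 6.52 to 11.1 times the mean in GFP 2 and 7.18 to 10.2 times in GFP 3.

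FLAG 1 listed a peak at 146 of the 221 raised-background sites (66.1%, interval 59.6 to 72.0), and at 133 of those 146 its main fold was 2 or less. With pileup capped at 106, the highest possible fold had a median of 1.78 at the 146 and was 2 or less at 124 of them. Of the 22 where a fold above 2 was possible, 13 had one. Of raised-background sites in 1 GFP library, FLAG 1 overlapped 5 of 58 in GFP 2 only and 10 of 67 in GFP 3 only. Those sites were narrower, with median widths of 71.5 and 69 bp against 167 bp at the 221. The part of width in these shares was not tested. Pileup was at 80% or more of its limit at 89 of the 221 in GFP 2 and at 184 in GFP 3, against 8 and 4 of the 67 low-background sites. The part of repeated sequence, input depth or this limit in the raised-background sites was not tested.

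At the edge of the overlap rule, the smallest shared stretches were 13 bp on I, 24 bp on X, 35 bp on V, 38 bp on X and 41 bp on II. The nearest misses were gaps of 14 bp on X, 20 bp on II, and 28, 47 and 57 bp on V. Of the 68 GFP 3 peaks without a GFP 2 peak, 10 had one within 100 bp.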

How the data were processed

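ChIP-seq was done on 4 libraries of whole L4 animals: 2 GFP IPs, 1 FLAG IP and 1 input. The authors ran MACS 2.1.0.20140616 on every IP by itself with the input as control, per the file headers, with a q-value cutoff of 0.05, subpeak summits, 1 tag per position and sampling down of the larger library. For GFP 3 the caller also listed fragment lengths of 3, 595 and 598 bp beside the 48 bp it used, per the file headers, and pileups, folds and widths rest on the length used. The submitters' processing notes name ce10 as the build. The aligner's name is not given in the sources at hand.

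The deposited pileup is a signal in extended tags, the deposited fold enrichment is a ratio, and the deposited significance columns are −log10 of p and q. Background was computed as (pileup + 1) / fold − 1, and its lowest value in each list was taken as the genome-wide mean. Peaks were joined into sites by overlaps of at least 1 bp, and a site's main peak in a library is the one with the highest pileup. Shares carry 95% Wilson intervals and medians exact order-statistic intervals, over sites that are not independent of each other. No p-values were computed, since both GFP lists share 1 input and there are 2 replicates. Named sites were the 10 low-background sites strongest in the weaker list, the 5 with most summits and the 5 widest in each background class, the 5 strongest without FLAG 1, and the 3 of highest pileup in each single library (GFP 3 had 1). The members, lists and limits were chosen with earlier results of these data known. Sequences and gene names were not used here. The joining was tested on simulated data. Tools were pandas 2.3.3, numpy 2.4.6, matplotlib 3.10.9 and scipy 1.17.1, under Python 3.11.15.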

Additional observations from a re-analysis of the deposited data

How the results depend on the processing

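Against the 288 sites of both replicates there were 192 with peaks above 2-fold, the design text's limit, and 61 above 3-fold. There were 166 at −log10 q above 5, 67 with low-background peaks only and 80 with GFP 2 cut to the length of GFP 3. With GFP 2 left out, 246 of 399 GFP 3 peaks overlapped FLAG 1 (61.7%). With GFP 3 left out, 378 of 847 GFP 2 peaks did (44.6%). These are counts of single peaks, not of joined sites. GFP 2 peaks found in GFP 3 (34.5%) came to 24.2% above 2-fold, 13.1% above 3-fold, 11.9% at low background, 30.5% with summits within 100 bp and 20.1% with equal lengths. GFP 3 peaks found in GFP 2 (83.0%) came to 93.9% above 3-fold, 93.4% at low background, 64.4% with summits within 100 bp and 21.3% with equal lengths. Median GFP 2 width (192 bp) was 227 bp above 2-fold, 386 bp above 3-fold, 384 bp at low background and 379 bp with equal lengths. Median GFP 3 width (124 bp) was 165 bp above 3-fold, 139.5 bp at −log10 q above 5, 163 bp at low background and 159 bp with equal lengths. Sites with several summits in both libraries (29.9%) fell to 19.8% with summits within 100 bp. The median summit distance (9 bp) was 16 bp above 3-fold, 6 bp at −log10 q above 5, 22 bp at low background and 15 bp with equal lengths. The raised-background share (76.7%) was 65.1% above 2-fold, 6.56% above 3-fold, 0% by construction at low background and 18.8% with equal lengths. The share with a FLAG 1 peak (71.9%) was 39.1% above 2-fold, 80.3% above 3-fold, 31.3% at −log10 q above 5, 91.0% at low background and 91.2% with equal lengths. The limits on fold, q and background, though not the cut to equal lengths, were applied to the FLAG 1 list as well. A FLAG 1 peak below them was thus not counted. Of the 146 raised-background sites with a FLAG 1 peak, 133 had a FLAG 1 main fold of 2 or less. The fold limits and the cut by fold remove raised-background peaks, as the raised-background share shows, and the causes of the other moves were not tested. The share on X stayed within its interval in all 8 settings, and 49 of the 86 alternative values stayed within the interval of the value as reported (counts within 1.5 times). No paired analysis was possible because the groups compared share fewer than 2 replicate numbers and the results come from no test. The lowest pileups listed at low background, 14 in GFP 2 and 16 in GFP 3, bound what the lists can show at weak sites.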
